A study of Homo sapiens with 8 samples.

Results

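The nuclear-encoded subunits of the oxidative phosphorylation complexes were examined in PANC1 cells, which derive from a human pancreatic ductal carcinoma, with 8 PrimeView arrays from Affymetrix. Members were chosen by name. They comprised every non-control probe set with a single gene symbol that was NDUFA, NDUFB, NDUFC, NDUFS or NDUFV followed by a digit, SDHA to SDHD, a symbol starting with UQCR, COX4 to COX8 followed by a letter, or a symbol starting with ATP5F, ATP5M or ATP5P. This gave 184 of 49293 probe sets and 81 of 18132 genes: 35 genes of complex I, 3 of complex II, 8 of complex III, 17 of complex IV and 18 of complex V. SDHB and UQCRFS1 were not analysed here. The gene long known as NDUFA4 is annotated on this platform as COXFA4 and is described beside the members.

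Each of 4 groups had 2 arrays. Control cells were of wild-type genotype and untreated. In the sgBAP1 group, BAP1, a deubiquitinase acting on histone H2A, had been deleted by CRISPR/Cas9. The IR group had the wild-type genotype and received 10 Gy, and the sgBAP1 + IR group carried the deletion and received the same dose. RNA was collected 3 days after radiation. The study describes PANC1 as having a single remaining copy of BAP1, which every group shares. The control label does not say whether those cells received the non-targeting guide that the methods describe, and neither source says whether the targeted cells were a pool or a clone. BAP1's own transcript was not analysed here. No source states that replicate arrays stem from separate cultures, so p-values measure only the spread between these samples, which may be technical.

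Oxidative phosphorylation takes place in the inner mitochondrial membrane. Complex I oxidises NADH and complex II oxidises succinate. Both pass electrons through ubiquinone to complex III, which hands them on to cytochrome c and complex IV, where oxygen is reduced to water. The proton gradient built up on the way drives the rotary ATP synthase, complex V. Most subunits are encoded in the nucleus and imported, whereas a small set is encoded by mitochondrial DNA, so assembly needs both genomes. Transcription of the nuclear genes is classically tied to the factors NRF1, GABPA (an ETS protein), YY1, the ERR receptors and SP1.

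The promoters of 7 members that changed in the comparisons described further on are printed to show how these genes are built: ATP5MC2 and NDUFS7 fell with the BAP1 guide, SDHA, UQCRC1, NDUFS6 and ATP5F1A fell and UQCR11 rose after radiation. Each line is the 250 bases upstream of a transcription start in RefSeq on GRCh38.p14, read 5′ to 3′ along the gene. Capitals mark matches on either strand to GCGCATGCG (NRF1), CCGGAAG (ETS), AAGATGGCG (YY1), TNAAGGTCA (ERR) or GGGCGG (SP1).
ATP5MC2 promoter (chr12:53676084-53676333, minus strand): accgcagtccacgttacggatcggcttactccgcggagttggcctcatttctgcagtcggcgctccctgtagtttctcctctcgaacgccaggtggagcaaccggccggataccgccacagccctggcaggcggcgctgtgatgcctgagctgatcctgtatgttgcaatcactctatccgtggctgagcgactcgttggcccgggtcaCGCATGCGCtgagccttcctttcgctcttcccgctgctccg
NDUFS7 promoter (chr19:1383657-1383906, plus strand): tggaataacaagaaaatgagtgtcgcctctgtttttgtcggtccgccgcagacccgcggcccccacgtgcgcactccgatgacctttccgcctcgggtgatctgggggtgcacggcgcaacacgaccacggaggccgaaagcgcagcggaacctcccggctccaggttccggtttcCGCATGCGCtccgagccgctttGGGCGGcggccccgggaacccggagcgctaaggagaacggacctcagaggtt
SDHA promoter (chr5:218070-218319, plus strand): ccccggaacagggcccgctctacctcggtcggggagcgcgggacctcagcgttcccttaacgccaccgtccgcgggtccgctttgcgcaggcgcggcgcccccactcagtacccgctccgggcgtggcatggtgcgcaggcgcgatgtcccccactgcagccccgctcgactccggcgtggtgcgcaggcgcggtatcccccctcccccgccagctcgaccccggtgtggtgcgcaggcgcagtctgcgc
UQCRC1 promoter (chr3:48609647-48609896, minus strand): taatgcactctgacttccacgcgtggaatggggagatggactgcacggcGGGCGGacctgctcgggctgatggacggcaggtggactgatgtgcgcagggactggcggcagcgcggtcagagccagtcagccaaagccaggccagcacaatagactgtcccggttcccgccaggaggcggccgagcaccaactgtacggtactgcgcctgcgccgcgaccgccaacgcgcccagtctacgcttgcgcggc
NDUFS6 promoter (chr5:1801157-1801406, plus strand): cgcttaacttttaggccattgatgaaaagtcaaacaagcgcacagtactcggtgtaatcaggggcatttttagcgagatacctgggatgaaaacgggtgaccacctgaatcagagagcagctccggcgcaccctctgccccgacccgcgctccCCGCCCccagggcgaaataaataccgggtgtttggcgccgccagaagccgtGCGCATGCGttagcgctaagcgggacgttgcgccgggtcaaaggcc
UQCR11 promoter (chr19:1605463-1605712, minus strand): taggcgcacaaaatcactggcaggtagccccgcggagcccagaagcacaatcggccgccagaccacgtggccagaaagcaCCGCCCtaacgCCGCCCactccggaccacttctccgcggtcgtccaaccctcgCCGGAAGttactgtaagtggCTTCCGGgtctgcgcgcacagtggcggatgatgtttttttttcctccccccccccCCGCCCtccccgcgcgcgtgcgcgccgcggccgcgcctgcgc
ATP5F1A promoter (chr18:46098297-46098546, minus strand): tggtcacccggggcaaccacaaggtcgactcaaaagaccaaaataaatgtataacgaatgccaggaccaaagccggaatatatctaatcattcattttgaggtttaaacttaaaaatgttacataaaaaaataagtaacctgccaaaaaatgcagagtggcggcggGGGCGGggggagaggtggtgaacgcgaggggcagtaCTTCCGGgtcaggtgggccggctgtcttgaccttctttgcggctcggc
The NRF1 letters stood in the promoters of ATP5MC2, NDUFS7 and NDUFS6, 74 bases or less upstream of the start. UQCR11 and the printed window of ATP5F1A held the ETS letters. Within the 250 bases upstream, SDHA held none of the letters searched, and UQCRC1 held those of SP1 alone. ATP5F1A has 2 windows in RefSeq, of which the one not printed held the SP1 letters 3 times there and no others. ATP5MC2 has 3, of which the 2 not printed held none there. For both genes the window with a match to NRF1 or ETS is the one shown. The windows counted below reach 50 bases past the start. In these longer windows UQCRC1 and NDUFS7 also held the YY1 letters, and ATP5MC2 held the SP1 letters.

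RefSeq windows of 300 bases, from 250 before to 50 after the start, were matched for 66 of the 81 members and for 14425 measured genes, and a gene with several windows was counted if any of them held the letters. The NRF1 letters occurred in 11 members (16.7%, against 3.24% of measured genes and 1.92% of all 35116 windows). The ETS letters occurred in 20 (30.3%, against 16.9% and 10.3%), the YY1 letters in 8 (12.1%, against 3.37% and 1.75%) and the ERR letters in 2 (3.03%, against 0.867% and 0.951%). The SP1 letters occurred in 41 (62.1%, against 65.7% and 45.0%). NRF1, ETS or YY1 letters were thus found in 33 of 66 member promoters and in 21.6% of those of measured genes. Genes that fell and genes that rose both carried them: 6 of 11 matched members that fell with the guide, and 3 of 4 that rose. These matches describe letters in a window and say nothing about binding.

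The members gave bright signals. In log2 units of the RMA values, the median member stood at 11.2 and 74 of 81 stood at 9 or above. The signal depends on the probes, so it does not rank genes by abundance. The 5 members under 5 log2 were ATP5MGL, COX4I2, COX7A1, COX7B2 and COX8C, of which several are isoforms known from other tissues such as muscle, lung and testis. The median SD between the arrays of a group was 0.032 log2 for members and 0.0703 for all genes. Array medians lay between 6.12 and 6.15 log2, and arrays of a group correlated at 0.998 or more. The ductal and epithelial markers (KRT7, KRT8, KRT18, KRT19, SOX9 and EPCAM) had means between 6.61 and 13.7 log2, the 3 islet markers measured stood under 5, and the 3 acinar and 3 endothelial markers measured had means of 5.34 to 6.96. Of the 4 immune markers measured, the pan-leukocyte marker PTPRC stood at 3.31 to 3.60 on all arrays and ITGAM and CD3E at means of 4.66 and 5.18. The fourth, CD68, a lysosomal protein of macrophages that other cells also make, had a mean of 8.34 and was called in both directions, higher with the guide (0.93 ± 0.080 log2, adjusted p = 0.000323) and lower after IR (-0.63 ± 0.080, adjusted p = 0.00253). All 6 ductal markers were higher after IR (KRT19 by 1.12 ± 0.054 log2, adjusted p = 4.33e-05). The part of these shifts in the results below was not tested.

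The first question was how far the whole machinery moved. A gene is said to pass at a limma adjusted p under 0.05 and to be called if it also changed by more than 1.5-fold; each gene is represented by its brightest probe set, and p-values were adjusted over all 49293 probe sets. No member was called in any of the 6 comparisons. In sgBAP1 against control, 4 members rose, where 11.9% of all genes rose, and 13 fell, where 16% of all genes fell. In total 21.0% of the members and 27.9% of all genes passed, and 4.94% of all genes were called. In IR against control, 10 members rose (9.22% of all genes did) and 6 fell (10.6%), which made 19.8% of the members and 19.8% of all genes, and 3.58% of all genes were called. In sgBAP1 + IR against control, 15 members rose (17.4% of all genes) and 15 fell (19.2%), which made 37.0% of the members and 36.6% of all genes, and 8.01% of all genes were called. The median member differed by -0.018, 0.048 and 0.022 log2 in these comparisons, and the median gene by 0.0010, -0.0023 and 0.035.

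The shares were also set beside those of genes of similar signal, and the differences were not tested. Among the 4187 genes at 9 log2 or above, 44.7% passed in sgBAP1 against control, and 21.6% of the 74 members at that signal did. The shares were 31.1% and 21.6% in IR against control, and 52.3% and 39.2% in sgBAP1 + IR against control. The median absolute change in sgBAP1 against control was 0.16 log2 for these genes and 0.09 for the members, and 5.02% of the genes were called. The extremes of the members were -0.55 and +0.42 log2 over all 3 comparisons with control. A median member's 95% interval reached 0.125 log2 to either side in IR against control, so shifts smaller than this could not be told from 0 for single members. The interval is not adjusted for the number of tests, and a pass needed a larger shift.

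The count of members that passed depended on how the variance was estimated. With an intensity trend in the variance prior, 39, 42 and 51 members passed in the 3 comparisons with control (48.1%, 51.9% and 63%), and 35.7%, 29.6% and 42.8% of all genes did. At 9 log2 or above the shares with the trend were 51.4%, 56.8% and 67.6% of the members and 66.4%, 57.3% and 72.7% of the genes. Under that setting 29 of the 42 members that passed after IR were higher, and 2521 of the 5371 genes that passed were. This difference was not tested. Fitted on the 2 groups compared alone, 9, 7 and 17 members passed.

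**Figure D1:**
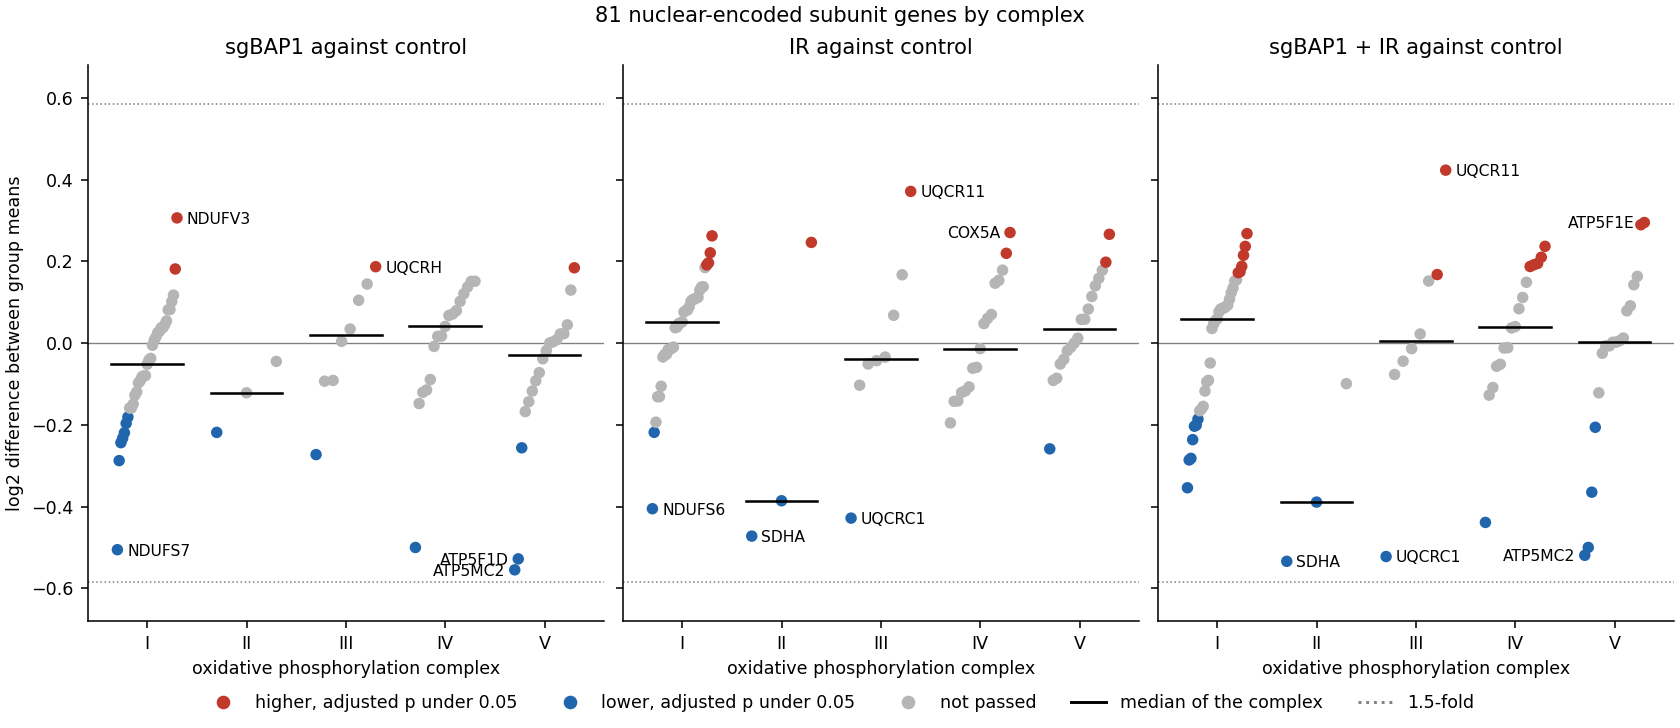
Log2 difference from the control mean (y axis) for each of the 81 member genes, grouped by complex (x axis), in the 3 comparisons with control. Each dot is 1 gene, red if higher and blue if lower at an adjusted p under 0.05, and grey if not passed; bars are medians and dotted lines mark 1.5-fold, which no member crossed. The 3 genes of complex II all passed after IR, and complexes I to V each hold genes on both sides of 0 there.

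The comparison of sgBAP1 with control asks what targeting BAP1 did without radiation. The largest falls were in complex V and in the electron-transfer arm of complex I. ATP5MC2, 1 of 3 genes that encode the same c subunit of the membrane ring, read 11.50 and 11.52 log2 on the control arrays, 10.96 and 10.95 with sgBAP1, 11.43 and 11.41 with IR, and 11.01 and 10.97 with sgBAP1 + IR. The 4 arrays with the guide lay below the 4 without it. The sgBAP1 mean was 0.68 times control (-0.55 ± 0.049 log2, standard error, n = 2 arrays per group, adjusted p = 0.000374). ATP5F1D, the delta subunit of the central stalk, read 10.85 and 10.81 in control, 10.33 and 10.28 with sgBAP1, 10.84 and 10.80 with IR, and 10.47 and 10.46 with both. Its arrays split the same way, and it fell by 0.53 ± 0.051 log2 (adjusted p = 0.000537).

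NDUFS7, the core subunit that holds the last iron-sulfur cluster before ubiquinone, read 9.25 and 9.29 in control, 8.77 and 8.76 with sgBAP1, 9.24 and 9.24 with IR, and 8.94 and 9.04 with both. Again the arrays with and without the guide did not overlap, with the sgBAP1 + IR arrays lying between. It fell by 0.51 ± 0.055 log2 with the guide alone (adjusted p = 0.000855). COX6B2, an isoform of complex IV known from testis, fell by 0.50 ± 0.078 log2 (adjusted p = 0.00354) on a dim probe set that read 6.89 and 7.02 in control and 6.47 and 6.44 with sgBAP1. Its other 2 probe sets gave 0.12 and -0.12 log2 and did not pass.

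The largest rise with the guide was that of NDUFV3, an accessory subunit of the NADH-oxidising module. It read 9.50 and 9.48 in control, 9.82 and 9.77 with sgBAP1, 9.50 and 9.46 with IR, and 9.72 and 9.69 with both. The 4 guide arrays lay above the others, and the difference without radiation was 0.31 ± 0.052 log2 (adjusted p = 0.00489). UQCRH, the hinge protein of complex III, and ATP5MK, a small subunit of the ATP synthase dimer, passed narrowly at 0.19 ± 0.053 (adjusted p = 0.039) and 0.18 ± 0.055 log2 (adjusted p = 0.0473). ATP5MK lost its pass whichever array was left out (adjusted p 0.0507 to 0.187), and UQCRH lost it without either control array, either sgBAP1 array or either sgBAP1 + IR array (0.0587 to 0.139).

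Of the 17 members that passed with the guide, ATP5MC2, ATP5F1D, NDUFS7, COX6B2 and NDUFV3 passed whichever array was left out. The other falls were smaller, from -0.18 to -0.29 log2, and included the complex I genes NDUFA2, NDUFA7, NDUFA10, NDUFB4, NDUFB7 and NDUFB10, with SDHC, UQCRC1 and ATP5MC1. These each lost the pass without at least 1 array, and the count fell to 6 without either sgBAP1 array and to 7 without control replicate 1. By complex, 2 of 35 complex I genes rose and 7 fell, 0 of 3 and 1 in complex II, 1 of 8 and 1 in complex III, 0 of 17 and 1 in complex IV, and 1 of 18 and 3 in complex V.

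**Figure D2:**
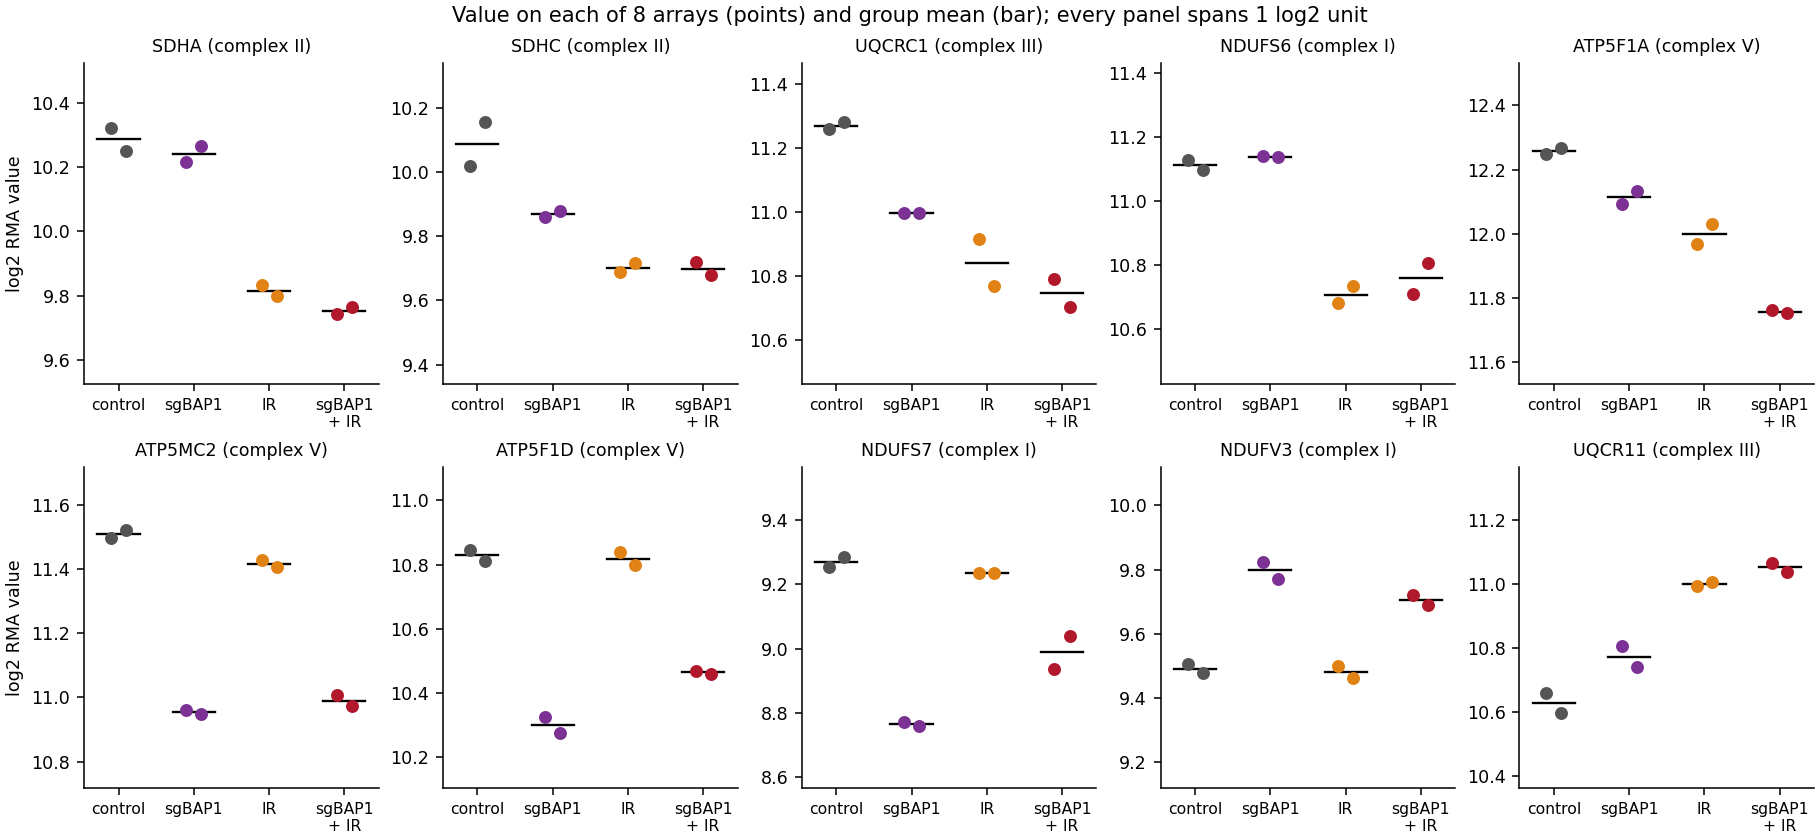
Log2 RMA value (y axis) of 10 member genes on each of the 8 arrays (points) and the mean of each group (bars); every panel spans 1 log2 unit but starts at its own level. SDHA, SDHC, UQCRC1 and NDUFS6 are lower in all 4 irradiated arrays than in the 4 others, and ATP5MC2, ATP5F1D and NDUFS7 are lower in all 4 arrays with the BAP1 guide.

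The comparison of IR with control asks what 10 Gy did to cells that were not targeted. All 3 measured complex II genes passed, and in opposite directions. SDHA, the flavoprotein that oxidises succinate, read 10.32 and 10.25 log2 in control, 10.22 and 10.27 with sgBAP1, 9.83 and 9.80 with IR, and 9.74 and 9.76 with both. The 4 irradiated arrays lay below the other 4, and IR lowered it to 0.72 times control (-0.47 ± 0.054 log2, adjusted p = 0.00169). SDHC, a membrane anchor of the complex, read 10.02 and 10.16 in control, 9.86 and 9.88 with sgBAP1, 9.69 and 9.72 with IR, and 9.72 and 9.68 with both, a fall of 0.39 ± 0.061 log2 after IR (adjusted p = 0.00627).

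SDHD, the other anchor, was the exception. It read 10.15 and 10.18 in control, 10.01 and 10.07 with sgBAP1, 10.44 and 10.38 with IR, and 10.10 and 10.03 with both, so that only the IR arrays without the guide stood apart. It was higher by 0.25 ± 0.057 log2 after IR (adjusted p = 0.0256), and this pass was lost without either control array or either IR array (adjusted p 0.0721 to 0.133). The complex cannot form without its anchors, but protein was not measured on these arrays.

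In complex III a core subunit and a small subunit moved apart. UQCRC1, a core protein of the matrix arm, read 11.26 and 11.28 in control, 11.00 and 11.00 with sgBAP1, 10.91 and 10.77 with IR, and 10.79 and 10.70 with both. It fell by 0.43 ± 0.066 log2 after IR (adjusted p = 0.00549). UQCR11, a small supernumerary subunit, read 10.66 and 10.60 in control, 10.81 and 10.74 with sgBAP1, 10.99 and 11.01 with IR, and 11.07 and 11.04 with both. All irradiated arrays lay above all others, a rise of 0.37 ± 0.054 log2 (adjusted p = 0.00441). Its other probe set, at 7.56 log2, differed by -0.04 and did not pass, and the mean of both gave 0.16 (adjusted p = 0.034). The remaining 6 genes of complex III did not pass.

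In complex I, the zinc-binding subunit NDUFS6 read 11.13 and 11.10 in control, 11.14 and 11.14 with sgBAP1, 10.68 and 10.73 with IR, and 10.71 and 10.81 with both. It fell by 0.41 ± 0.056 log2 after IR (adjusted p = 0.00362), and the guide arrays sat level with the control arrays. NDUFV2, an iron-sulfur core subunit, was lower by 0.22 log2 (adjusted p = 0.0269), while the membrane-arm genes NDUFA1, NDUFA13, NDUFB1 and NDUFB5 were higher by 0.19 to 0.26. Of the 15 peripheral-arm genes 0 rose and 2 fell, and of the 20 membrane-arm genes 4 rose and 0 fell. After radiation in sgBAP1 cells, 2 peripheral-arm genes rose and 2 fell, and 4 membrane-arm genes rose and 0 fell. In sgBAP1 + IR against control, 4 peripheral-arm genes rose and 5 fell, and 2 membrane-arm genes rose and 2 fell. The difference between the arms was not tested. Elsewhere in IR against control, COX5A, a complex IV subunit of the matrix side, was higher by 0.27 ± 0.052 log2 (adjusted p = 0.0131). ATP5MJ, a small ATP synthase subunit, was higher by 0.27 ± 0.066 (adjusted p = 0.0334), and the mean of its 7 probe sets gave 0.093 (adjusted p = 0.322). ATP5F1A, the alpha subunit of the F1 head, was lower by 0.26 ± 0.052 (adjusted p = 0.0152).

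SDHA, SDHC, UQCRC1, NDUFS6 and UQCR11 passed after IR whichever array was left out. The other 11 each lost the pass without at least 1 array: COX5A without control replicate 2 (0.26 log2, adjusted p = 0.0581) and IR replicate 1 (0.24, 0.0819), and ATP5F1A and ATP5MJ without any 1 of the control or IR arrays (adjusted p 0.0506 to 0.137). Without IR replicate 1 the count fell to 5, and without IR replicate 2 or either control array to 6. The genes that fell lay on chromosomes 1 (SDHC), 3 (UQCRC1), 5 (SDHA and NDUFS6) and 18 (ATP5F1A and NDUFV2). Of their measured neighbours, 6 of 11 for SDHA and 11 of 20 for NDUFS6 also fell and 0 rose. The neighbours are described under Other observations.

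With both treatments, sgBAP1 + IR against control, the passes of each treatment stood side by side. SDHA was at 0.69 times control (-0.53 ± 0.054 log2, adjusted p = 0.000407), UQCRC1 at 0.70 (-0.52 ± 0.066, adjusted p = 0.00105), ATP5MC2 at 0.70 (-0.52 ± 0.049, adjusted p = 0.000317) and ATP5F1A at 0.71 (-0.50 ± 0.052, adjusted p = 0.00045). ATP5F1A was ordered over the groups, with 12.25 and 12.27 log2 in control, 12.09 and 12.13 with sgBAP1, 11.97 and 12.03 with IR, and 11.76 and 11.75 with both. No 2 groups overlapped. COX6B2 fell by 0.44, SDHC by 0.39, ATP5F1D by 0.36, NDUFS6 by 0.35, NDUFA5, a complex I accessory subunit, by 0.29, and NDUFS7 by 0.28 log2. For NDUFS7 the mean of its 4 probe sets gave -0.057 (adjusted p = 0.425), since a dim one at 4.26 log2 rose by 0.55 (adjusted p = 0.0266) while the 3 bright ones fell.

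The largest rises with both treatments were UQCR11 (0.42 ± 0.054 log2, adjusted p = 0.0011), ATP5F1E, the epsilon subunit of the central stalk (0.30 ± 0.054, adjusted p = 0.00529), and ATP5MK (0.29 ± 0.055, adjusted p = 0.00644). ATP5F1E read 11.94 and 11.86 in control and 12.20 and 12.19 with both treatments, and ATP5MK read 12.14 and 12.04 against 12.39 and 12.36. Of the 30 members that passed, 14 passed whichever array was left out: the 13 genes just named with NDUFA13. The count without single arrays was between 15 (without sgBAP1 + IR replicate 1) and 26, with 17 without control replicate 1 and 18 without sgBAP1 + IR replicate 2.

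Each treatment was then compared in the presence and absence of the other, using arrays that do not overlap. In sgBAP1 cells, 10 members rose and 6 fell after radiation (10% and 10.5% of all genes did), 19.8% of members against 20.5% of all genes passed, 0 were called and 3.19% of all genes were. Among the 16 members that passed in each of both settings, 10 were shared, all with the same sign: ATP5F1A, NDUFS6, NDUFV2, SDHA and UQCRC1 fell, and ATP5MJ, COX5A, NDUFA13, NDUFB5 and UQCR11 rose. SDHA and NDUFS6 passed in both settings whichever array was left out, and the other 8 did not. With the mean of all probe sets, ATP5MJ and UQCR11 lost the pass in sgBAP1 cells (0.14, adjusted p = 0.142, and 0.088, adjusted p = 0.194), and ATP5MJ and NDUFA13 lost it in untargeted cells (0.093, adjusted p = 0.322, and 0.070, adjusted p = 0.436). These 10 were 62.5% of either list, and over all genes the shared passes were 58.5% and 56.6% of the lists. The sign was the same for 67 of 81 members and for 12269 of all 18132 genes. Pearson's r across the members was 0.81, against 0.77 across all genes. Genes are not independent replicates.

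SDHA fell by 0.47 log2 after radiation in untargeted cells and by 0.49 ± 0.054 in sgBAP1 cells (adjusted p = 0.00153), and NDUFS6 by 0.41 and 0.38 ± 0.056 (adjusted p = 0.00447). NDUFA2, a thioredoxin-like complex I subunit, read 9.65 and 9.64 in control, 9.41 and 9.40 with sgBAP1, 9.87 and 9.79 with IR, and 9.86 and 9.79 with both. The irradiated arrays reached one level from unequal starting points: 0.18 ± 0.056 log2 in untargeted cells (adjusted p = 0.0631) and 0.42 ± 0.056 in sgBAP1 cells (adjusted p = 0.003). UQCR11 rose by 0.28 ± 0.054 in sgBAP1 cells (adjusted p = 0.0124; 0.0748 without sgBAP1 replicate 2 and 0.0639 without sgBAP1 + IR replicate 1). SDHA, NDUFS6, ATP5F1A and NDUFA2 passed here whichever array was left out; the count fell to between 5 and 7 without any 1 of the sgBAP1 or sgBAP1 + IR arrays.

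In irradiated cells, 1 member rose and 9 fell with the guide (7.27% and 10.1% of all genes did), 12.3% of members against 17.3% of all genes passed, 0 were called and 2.12% of all genes were. ATP5MC2 fell by 0.43 ± 0.049 log2 (adjusted p = 0.00282) and ATP5F1D by 0.35 ± 0.051 (adjusted p = 0.00615), and both passed whichever array was left out. ATP5MC1, another c-subunit gene, fell by 0.35 ± 0.054 (adjusted p = 0.00749; 0.0537 without IR replicate 1). Of the 17 members that passed without radiation and the 10 that passed with it, 8 were shared with the same sign: ATP5MC1, ATP5MC2, ATP5F1D, COX6B2, NDUFA10, NDUFB7 and NDUFS7 lower, and NDUFV3 higher. ATP5MC2 and ATP5F1D passed in both settings whichever array was left out, and the other 6 did not. With the mean of all probe sets, COX6B2 lost the pass without and with radiation (-0.17, adjusted p = 0.0885, and -0.10, adjusted p = 0.3) and NDUFS7 lost it with radiation (-0.073, adjusted p = 0.353). These were 47.1% and 80.0% of the lists (46.9% and 75.3% over all genes), and r across members was 0.80 (0.74 over all genes). The count fell to 2 without IR replicate 1, 5 without IR replicate 2 or sgBAP1 + IR replicate 1, and 4 without sgBAP1 + IR replicate 2.

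The interaction asks whether the response to radiation differed between untargeted and sgBAP1 cells. By limma, 0 members passed, 5 had an unadjusted p under 0.05, and the smallest adjusted p was 0.176, for NDUFS7 (0.26 ± 0.078 log2); 0.623% of all genes passed and 0.463% were called. With the intensity trend, 8.36% of all genes and 6.17% of the members passed. At 9 log2 or above the shares were 19.5% of the genes and 6.76% of the members. The members that passed were ATP5F1D, NDUFA2, NDUFS7, SDHC and SDHD (adjusted p 0.0131 to 0.0317). The interaction was negative for SDHD (-0.22 log2) and positive for the other 4 (0.17 to 0.26). For SDHC the positive value was a smaller fall after radiation, -0.39 log2 in untargeted cells and -0.17 in sgBAP1 cells. SDHD differed after radiation by 0.25 log2 in untargeted cells and by 0.02 in sgBAP1 cells.

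**Figure D3:**
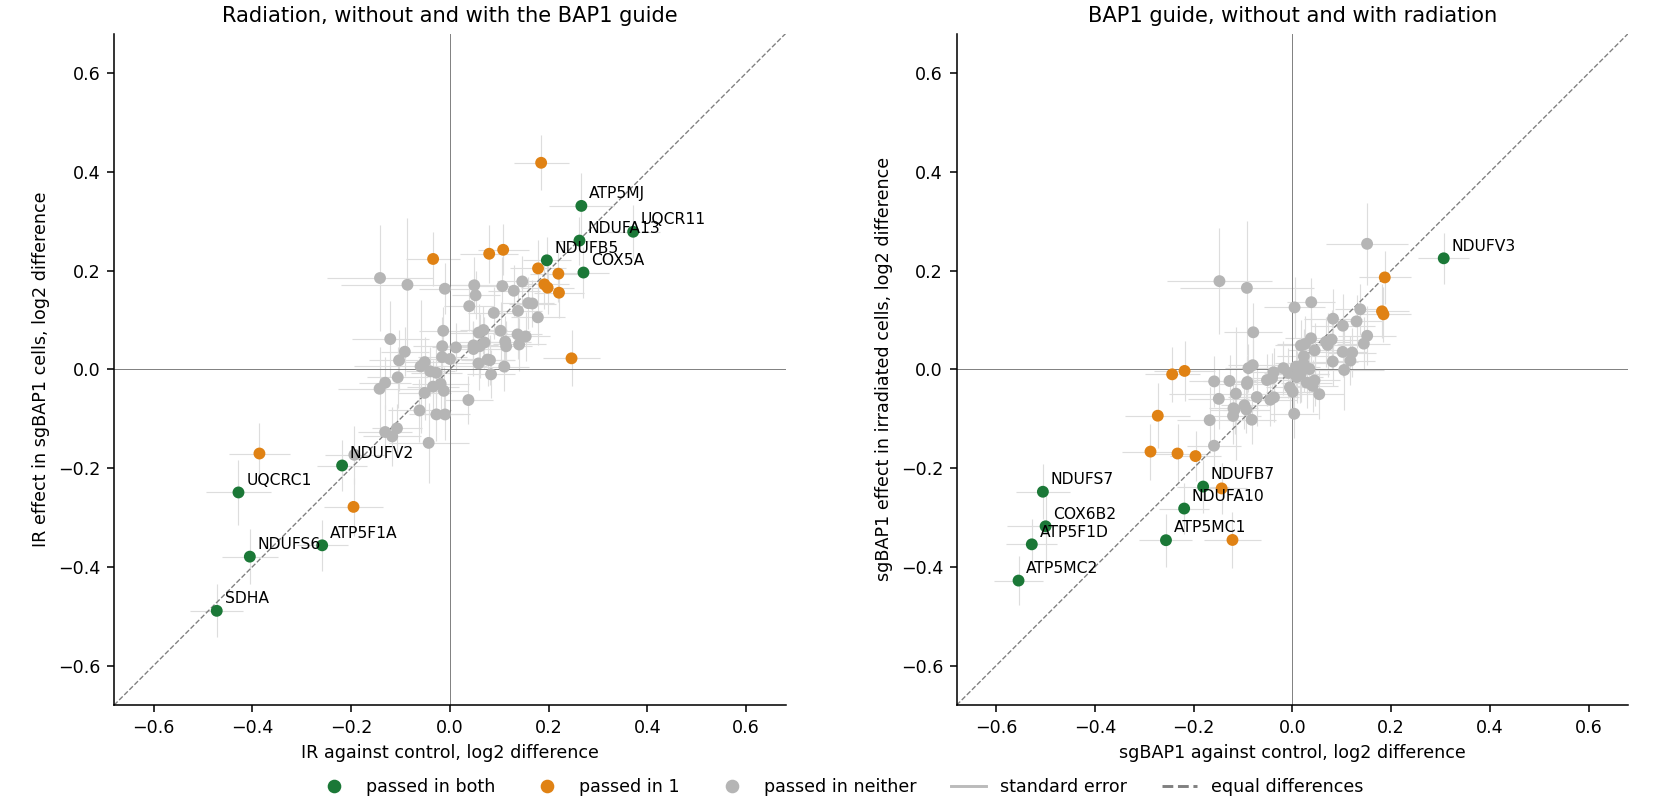
Left, the radiation response of the 81 members in untargeted cells (x axis) and in sgBAP1 cells (y axis); right, the difference made by the BAP1 guide without (x axis) and with radiation (y axis), all as log2 differences with standard errors. Green genes passed in both, 10 on the left and 8 on the right, and every green gene lies in a quadrant of equal sign; the dashed line marks equal differences.

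The families shown whole did not move as blocks. Within the F1 part of complex V, ATP5F1A and ATP5F1D were lower and ATP5F1E higher in sgBAP1 + IR against control, and ATP5F1B, the catalytic beta subunit, and ATP5F1C, the gamma subunit, differed by 0.01 (95% interval -0.11 to 0.14) and 0.00 log2 (-0.12 to 0.13). Among the 3 genes for the c subunit, ATP5MC1 and ATP5MC2 differed from control by -0.26 and -0.55 log2 with the guide, and ATP5MC3 by -0.04 (-0.15 to 0.08). The ATP5MC1 pass was lost without control replicate 1 (-0.22, adjusted p = 0.0647) or sgBAP1 replicate 1 (-0.23, 0.0735).

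Of the paired isoforms, the widely expressed form was bright on all arrays and the tissue-restricted form dim. COX4I1 read 11.31 to 11.73 log2 and COX4I2 4.51 to 4.93, COX6A1 13.08 to 13.29 and COX6A2 6.04 to 6.27, COX7A2 12.76 to 12.97 and COX7A1 4.15 to 4.53, and COX8A 12.32 to 12.43 and COX8C 3.80 to 4.21. Brightness of different probe sets cannot be compared as abundance, and for the forms under 5 log2 no change was detectable. COX6A1 and COX7A2 were both higher by 0.19 log2 in sgBAP1 + IR against control (adjusted p = 0.023 and 0.0263), and COX4I1 was lower by 0.28 ± 0.059 log2 after radiation in sgBAP1 cells (adjusted p = 0.0179; 0.105 without sgBAP1 replicate 1 and 0.0896 without sgBAP1 + IR replicate 1). The passes of COX6A1 and COX7A2 were lost without any 1 of the control or sgBAP1 + IR arrays (adjusted p 0.0537 to 0.105). COX6B1 read 12.37 to 12.46 in all groups. COXFA4, formerly NDUFA4, read 12.70 to 12.93 and its hypoxia-linked relative COXFA4L2 4.46 to 4.68, and neither passed in a comparison with control.

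Where a gene had several probe sets, they did not always agree. There were 49 such members, and 37 members are represented by a probe set whose name ends in _x_at or _s_at, a mark that its probes may also match other transcripts; 47 members have a pseudogene named after them. For SDHA, which has near-identical pseudogenes, both bright probe sets are of this kind and fell after IR, and the third, at 4.50 log2, did not pass (0.36 log2). NDUFA13 likewise rests on 2 bright probe sets of this kind that were higher after IR, while its 3 others read 3.97 to 5.40 log2 and did not pass. All 4 probe sets of ATP5F1A were lower with both treatments, by 0.44 to 0.65 log2, and 2 of them were past 1.5-fold (-0.62 and -0.65).

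The other probe sets past 1.5-fold were not the brightest of their gene. In sgBAP1 against control, where 4.68% of all probe sets were called, they were a probe set of NDUFV3 (0.69 ± 0.095 log2, adjusted p = 0.00214) and a dim one of NDUFS7 at 4.26 log2 (0.66 ± 0.15, adjusted p = 0.0166). The NDUFS7 probe set went against the other 3 of that gene, which fell by 0.47 to 0.52, and the mean of all 4 gave -0.21 (adjusted p = 0.0209). In sgBAP1 + IR against control, where 7.19% of probe sets were called, probe sets of NDUFV3 (0.60), NDUFS1 (-0.63), SDHA (-0.61) and UQCRQ (0.62) joined those of ATP5F1A. NDUFS1, the largest iron-sulfur subunit of complex I, was lower on all 5 of its probe sets, 4 of which passed and the brightest of which did not (-0.17 log2, adjusted p = 0.0783). The probe set of UQCRQ, a small subunit of complex III, read 6.17 and 6.11 in control and 6.86 and 6.66 with both treatments, whereas the brightest probe set differed by -0.01 log2.

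**Figure D4:**
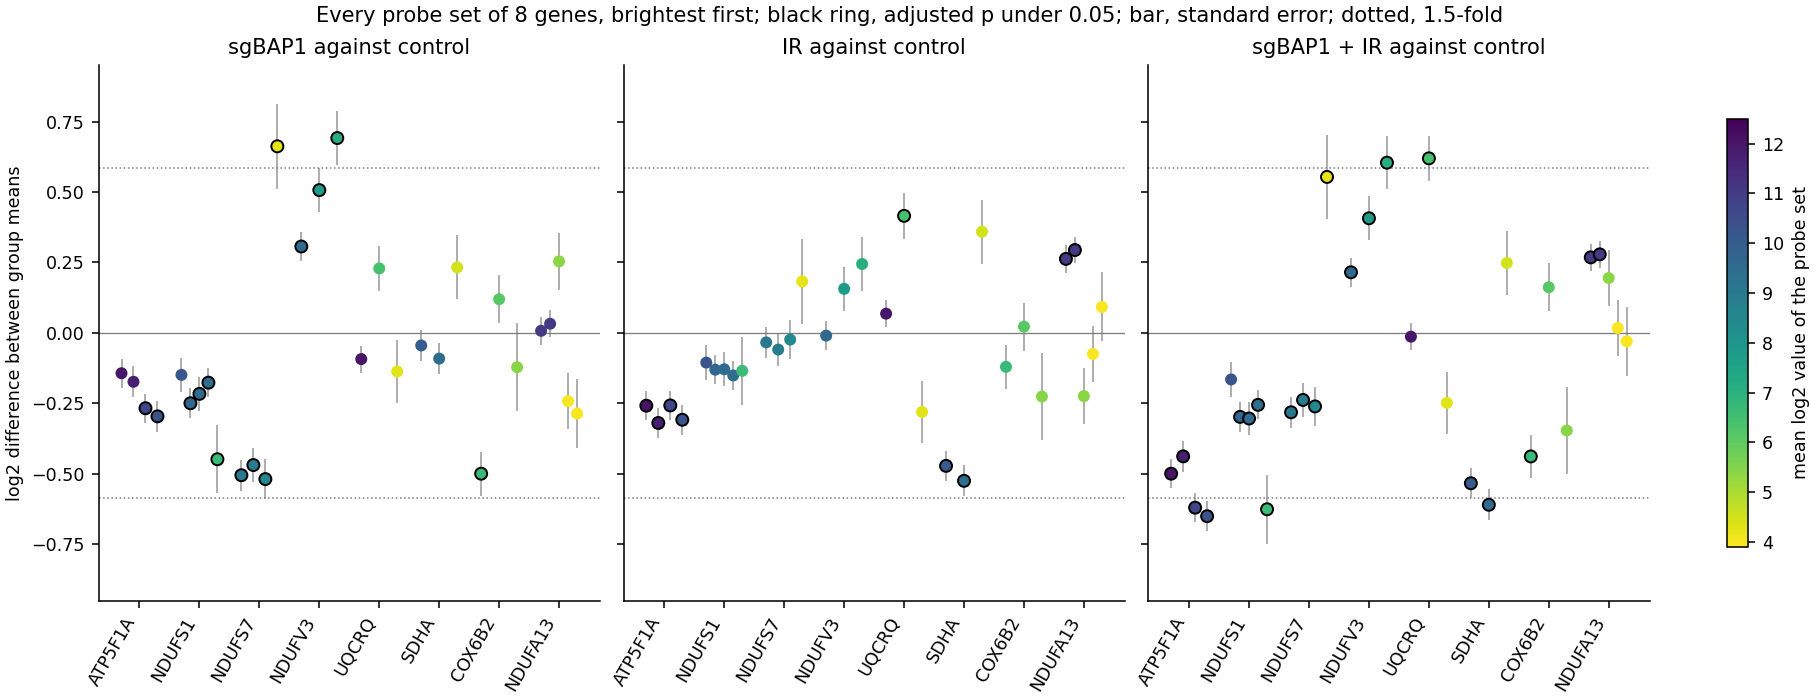
Log2 difference from control with its standard error (y axis) for every probe set of 8 member genes (x axis), brightest first within a gene and coloured by mean log2 value, in the 3 comparisons with control. Ringed points passed and dotted lines mark 1.5-fold; the probe sets of ATP5F1A and NDUFS1 lie on one side of 0, and the dim probe set of NDUFS7 lies opposite to its 3 bright ones with the guide.

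Other genes of the pathway were counted from lists, whose shares are to be read against the 11.9% of all genes that rose and 16% that fell in sgBAP1 against control, 9.22% and 10.6% in IR against control, and 17.4% and 19.2% in sgBAP1 + IR against control. Of 49 measured assembly factors, the proteins that build the complexes without staying in them, 7 rose (14.3%) and 11 fell (22.4%) in sgBAP1 against control, 2 rose (4.08%) and 7 fell (14.3%) in IR against control, and 9 rose (18.4%) and 15 fell (30.6%) in sgBAP1 + IR against control. COX20, which handles the copper subunit of complex IV, read 9.83 and 9.95 log2 in control, 9.17 and 9.19 with sgBAP1, 9.53 and 9.57 with IR, and 9.23 and 9.12 with both. It was called with the guide (-0.71 ± 0.064, adjusted p = 0.000404). NUBPL, which delivers iron-sulfur clusters to complex I, was called with both treatments (-0.93 ± 0.089, adjusted p = 0.000325), as was NDUFAF3, an early complex I factor (-0.64 ± 0.062, adjusted p = 0.000345). The largest rises in the list were NDUFAF2 with the guide (0.35) and COX14 after IR (0.38) and with both (0.51).

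Among 7 measured subunits and carriers outside the naming rule, CYC1, the cytochrome c1 of complex III, read 12.05 and 12.05 in control, 11.79 and 11.79 with sgBAP1, 11.79 and 11.75 with IR, and 11.55 and 11.55 with both (-0.50 ± 0.049 log2 with both, adjusted p = 0.000368). SLC25A5, an adenine nucleotide carrier, fell by 0.29 with the guide, and SLC25A4, its muscle-type relative, rose by 0.37 with the guide and fell by 0.33 after IR. No transcript of the 13 subunits encoded by mitochondrial DNA was analysed here. Of 21 measured regulators of mitochondrial biogenesis, 4 rose and 4 fell with the guide (19% each), 3 rose (14.3%) and 0 fell after IR, and 6 rose (28.6%) and 5 fell (23.8%) with both, with 0 called. They included factors whose letters were sought in the promoters, though not SP1. The largest falls that passed were NRF1 with the guide (-0.49 ± 0.076 log2, adjusted p = 0.00346) and GABPA with both (-0.41 ± 0.074, adjusted p = 0.00497). YY1 and the ERR receptors were neither called nor the largest change, and their values are not given. TFAM, which packages mitochondrial DNA and helps to start its transcription, rose by 0.43 ± 0.073 with the guide (adjusted p = 0.00492). The coactivator gene PPARGC1A stood at 3.97 to 4.07 log2 on all arrays. Of 12 measured tricarboxylic acid cycle genes, 1 rose (8.33%) and 3 fell (25%) with the guide, 0 rose and 2 fell (16.7%) after IR, and 1 rose (8.33%) and 4 fell (33.3%) with both. The largest falls were citrate synthase CS with the guide (-0.27 log2), SUCLG2 after IR (-0.43) and SUCLA2 with both (-0.42).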

How the data were processed

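RNA of 8 PANC1 samples was measured on PrimeView arrays. The authors deposited RMA values on a log2 scale, made with Expression Console 1.3. RMA corrects background, normalises quantiles between arrays and summarises each probe set, and it compresses small differences of dim probe sets. The table held 49395 probe sets, of which 102 control probe sets were left out and 49293 tested. No build was given for the array, so positions are printed for promoter windows only.

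Limma 3.58.1 in R 4.3.3 (lmFit and eBayes) was fitted to all 8 arrays as 4 group means, with 4 residual degrees of freedom. There were 6 comparisons, and p-values were adjusted by the Benjamini-Hochberg method over all probe sets of a comparison. A probe set passed at an adjusted p under 0.05 and was called if the fold also exceeded 1.5. For each gene the brightest probe set, by its mean over the 8 arrays, was used. Probe sets with several symbols were not used for genes, which left out 8 that name a member. Errors are standard errors of the difference. The number of arrays limits the precision. The script was tested on simulated data for IR against control. There 7% of changes of 0.3 log2 and 91% of changes of 1 log2 were recovered, with 3 false calls. Far fewer probe sets changed in the simulated data than passed here, so these shares do not give the power for the members.

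The members and lists were chosen with earlier results of these data known. Members were named if any probe set was called, if they were among the 3 largest rises or falls that passed in a comparison, at a mean of at least 5 log2, or if they belonged to a family shown whole; in the other lists, genes that were called or were the largest change that passed in a comparison with control were named. PPARGC1A, PTPRC, CD3E, ITGAM and the complex I genes NDUFA1, NDUFA5, NDUFA7, NDUFA10, NDUFA13, NDUFB1, NDUFB4, NDUFB5, NDUFB7, NDUFB10 and NDUFV2 fell outside this rule and were named after their values were seen. Alternatives were a further quantile normalisation, centring on the array median, a floor of 5 log2, an intensity trend, fits on 2 groups, the methods' t-test, the mean over probe sets, leaving out probe sets ending in _x_at or _s_at, a fold of 1.2 and leaving out each array.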

Additional observations from a re-analysis of the deposited data

How the results depend on the processing

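No paired analysis was possible because no replicate number recurs in more than 1 group's labels. Values below are in the order sgBAP1, IR and sgBAP1 + IR against control, IR effect in sgBAP1 cells and sgBAP1 effect in irradiated cells. Members that passed numbered 17, 16, 30, 16 and 10, and with the intensity trend 39, 42, 51, 42 and 26, with 5 for the interaction. They numbered 9, 7, 17, 7 and 5 in fits on the 2 groups compared, and 0, 0, 1, 0 and 0 by the methods' t-test after Benjamini-Hochberg adjustment. At an unadjusted p under 0.01 that t-test gave 15 in sgBAP1 + IR against control and 9 for the IR effect in sgBAP1 cells. With only probe sets of at least 5 log2, 27 passed in IR against control. With that floor 28 passed for the IR effect in sgBAP1 cells and 16 for the sgBAP1 effect in irradiated cells. Fewer probe sets then share the adjustment, and the variance prior is estimated without the dim ones. The IR effect in sgBAP1 cells gave 26 after a further quantile normalisation, 25 with the mean of all probe sets and 10 without probe sets ending in _x_at or _s_at, where IR against control also gave 10. Members called numbered 7, 7, 14, 7 and 6 at a fold of 1.2, against 0 at 1.5. The share of all genes called at a fold of 1.2 is not given here, so these counts cannot be read against a background. The trend, t-test and floor change the variance estimate, the number of tests or both by construction, and no cause of these differences was tested.

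The median change of the members was -0.029 (sgBAP1 against control), 0.072 (IR effect in sgBAP1 cells) and 0.027 log2 (interaction) after a further quantile normalisation. With array medians set equal it was 0.029 in IR against control, 0.0051 in sgBAP1 + IR against control and 0.021 for the IR effect in sgBAP1 cells. It was 0.0093 in sgBAP1 + IR against control with the floor. With the mean of all probe sets it was -0.033 in sgBAP1 and 0.036 in sgBAP1 + IR against control, and without _x_at and _s_at probe sets -0.0066 and 0.062.

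When 1 array was left out, 6 to 13, 5 to 14, 15 to 26, 5 to 13 and 2 to 10 members passed, with 0 to 0 for the interaction and 0 to 0 called throughout. The median change ranged from -0.023 to -0.0088, 0.015 to 0.052, 0.022 to 0.033, 0.041 to 0.051, -0.012 to -0.0029 and, for the interaction, -0.0055 to 0.018.

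Directions turned only where no probe set ending in _x_at or _s_at was used, which leaves 68 members and moves to dim probe sets. COX6B2 was then at 0.12, 0.16 and 0.14 in sgBAP1 against control, sgBAP1 + IR against control and the sgBAP1 effect in irradiated cells. UQCRH was at -0.0038 with sgBAP1. NDUFA13 was at -0.22 in IR against control and -0.059 in sgBAP1 cells. SDHA was at 0.36 in IR against control, 0.25 in sgBAP1 + IR against control and 0.016 in sgBAP1 cells.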

Other observations

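A further list held genes of the mitochondrial pyruvate carrier, of pyruvate dehydrogenase and its regulators, and of lactate dehydrogenase. In it PDK1, PDK3, MPC1 and PDP1 each differed from control by more than any member did where each gene is represented by its brightest probe set. Of 13 measured, 1 rose (7.69%, against 11.9% of all genes) and 6 fell (46.2%, against 16%) in sgBAP1 against control, 3 rose (23.1%, against 9.22%) and 4 fell (30.8%, against 10.6%) in IR against control, and 3 rose (23.1%, against 17.4%) and 6 fell (46.2%, against 19.2%) in sgBAP1 + IR against control. PDK1, a kinase that switches off pyruvate dehydrogenase, read 7.50 and 7.54 log2 in control, 6.91 and 6.74 with sgBAP1, 6.98 and 6.97 with IR, and 6.53 and 6.58 with both, so that the control arrays were the highest and the doubly treated arrays the lowest (-0.97 ± 0.066 log2 with both, limma adjusted p = 8.52e-05). PDK3, a kinase of the same family, differed by -0.87 ± 0.099 log2 both after IR and with both treatments (adjusted p = 0.0017 and 0.000684). MPC1, a subunit of the pyruvate carrier of the inner membrane, read 8.43 and 8.33 in control, 8.20 and 8.23 with sgBAP1, 9.04 and 9.06 with IR, and 9.03 and 9.01 with both (0.67 ± 0.055 log2 after IR, adjusted p = 0.000444). PDP1, the phosphatase that opposes the kinases, was higher with both treatments by 0.77 ± 0.072 log2 (adjusted p = 0.000297). Protein and flux were not measured.

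Of 75 measured mitochondrial ribosomal protein genes, 13 rose and 13 fell with the guide (17.3% each, against 11.9% and 16% of all genes), 1 rose (1.33%, against 9.22%) and 15 fell (20%, against 10.6%) after IR, and 8 rose (10.7%, against 17.4%) and 21 fell (28%, against 19.2%) with both. MRPL36 read 11.41 and 11.41 in control, 12.10 and 12.12 with sgBAP1, 11.15 and 11.07 with IR, and 11.69 and 11.59 with both: higher with the guide by 0.70 ± 0.059 (adjusted p = 0.000304). MRPL15 was also higher with the guide (0.62 ± 0.049, adjusted p = 0.000249). MRPL24 and MRPL48 were lower with both treatments (-0.71 and -0.59).

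The members that passed after IR or with the guide were set beside their neighbours in the RefSeq gene order, taking up to 10 measured genes of at least 5 log2 on either side. This was chosen after seeing the data. SDHA and NDUFS6 share chromosome 5 and 1 of these neighbours. Of the 11 neighbours of SDHA, 9 differed by less than 0 after IR, 6 fell and 0 rose (median -0.25 log2), and of the 20 of NDUFS6, 19 differed by less than 0, 11 fell and 0 rose (median -0.29). In sgBAP1 cells the medians were -0.25 and -0.30. For UQCRC1 on chromosome 3 the median of 20 neighbours was -0.20 in untargeted and -0.032 in sgBAP1 cells, with 8 and 5 that fell. For SDHC on chromosome 1 it was -0.039 and -0.026, for ATP5F1A -0.085 and -0.055, and for NDUFV2 -0.078 and -0.090. The 10 members that rose after IR had neighbours with medians from -0.050 (SDHD) to 0.19 (NDUFB1). Those of COX5A had a median of 0.16, with 7 that rose and 0 that fell, and 0.25 in sgBAP1 cells, with 11 that rose, and those of UQCR11 had a median of 0.0015. With the guide, the neighbours of ATP5F1D and NDUFS7 on chromosome 19, of which 14 are shared, had medians of -0.31 and -0.30. Among them 12 and 11 fell, and 1 rose for each gene. ATP5F1D and NDUFS7 are neighbours of each other, so each is counted among the other's neighbours that fell. The neighbours of ATP5MC2 on chromosome 12 had a median of -0.23, with 13 that fell and 1 that rose. The medians for the other 14 members that passed with the guide lay between -0.096 (NDUFB7) and 0.045 (SDHC). Over all 12967 genes of at least 5 log2, 50.9% differed by less than 0 after IR, 14.2% fell, and the median was -0.0033; with the guide 51.3% differed by less than 0, 21.4% fell, and the median was -0.0068. Genes that lie together are not independent.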
